A study of Homo sapiens with 6 samples.

Results

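The genes of the proteasome were followed in the breast cancer cell line MDA-MB-231, which is triple-negative, at baseline and after 12 h of dinaciclib, a small-molecule inhibitor of several cyclin-dependent kinases, among them CDK9, which drives transcript elongation. Members were all genes whose symbol in the array's annotation begins with PSMA, PSMB, PSMC, PSMD, PSME, PSMF or PSMG and a digit. The rule found 41 of the 11963 genes measured. Of these, PSMC3IP, a recombination factor, and PSME3IP1, a protein that binds the activator PSME3, encode no proteasome component and are counted apart, which left 39 genes. Neither passed the test, with log2 changes of -0.30 and -0.44.

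The baseline group held 3 samples at 0 h (E, 4 and 5) and the dinaciclib group 3 samples at 12 h (F, 4 and 5). All 6 came from the one line grown in RPMI with serum and antibiotics, and the drug was added to the medium from a DMSO stock. The labels state neither a dose nor whether baseline cells received DMSO, and there was no 12 h sample without the drug, so drug, solvent and time in culture cannot be told apart. Separate cultures are not stated either, and the p-values then measure the spread between these 6 samples alone, which may be technical.

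The proteasome is the large protease that degrades proteins tagged with ubiquitin. Its 20S core is a stack of rings of alpha subunits, which form the gate, and beta subunits, of which some carry the protease sites. The 19S particle caps the core: its ATPases unfold the substrate, and its non-ATPase subunits bind and remove ubiquitin. Interferon-induced beta subunits replace the catalytic ones in the immunoproteasome, other caps and an inhibitor regulate the core, and dedicated chaperones assemble it. Cells short of proteasome activity raise these genes together through the transcription factor NFE2L1.

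Intensities of single probe sets are given as log2(intensity + 1), here called log2 units, and a change is the dinaciclib mean minus the baseline mean on that scale. A gene was called at a Benjamini-Hochberg adjusted p under 0.05 in a limma fit over the whole array. Each gene was read from its brightest probe set. Median intensities were 53.3 to 66.2 in the baseline samples and 40.6 to 46.8 in the dinaciclib samples, so the arrays differed as a whole. The median gene changed by -0.26 as deposited, -0.02 after quantile normalization, 0.19 after centring on array medians and -0.37 after centring on spiked controls. An 18S ribosomal RNA control read 736 and 1154 in E and F but 8273 to 9062 in the numbered samples. The line's label was checked with marker genes: 8 mesenchymal or basal markers read 9.43 to 13.12 log2 units at baseline, 3 blood cell markers 3.95 to 4.32, and among luminal markers ESR1 read 4.77 and PGR 1.85, though KRT19 read 11.33 and GATA3 8.43. Precision is limited by the number of arrays.

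Transcripts of 4 of the 39 proteasome genes were lowered (10.3%), 0 were raised and 35 missed the threshold. Over all genes tested, 16.4% fell and 3.54% rose. The lowered genes were PSMD5, PSMG1, PSME3 and PSMF1, which encode 2 assembly chaperones, an activator and an inhibitor. None of the 27 measured subunits of the constitutive particle passed (limma, Benjamini-Hochberg). An unadjusted p under 0.05 was found for 4 of them, of which PSMD12 was higher and 3 were lower. Over all genes it was found for 4069 of 11963, with 835 higher and 3234 lower. Among the 9 regulators and assembly chaperones, 4 fell and 5 did not pass. This division by role was not tested, and the roles were listed with earlier results of these data known. Less RNA per cell and fewer cells with a transcript cannot be told apart in such bulk samples.

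The median change of the 39 genes was -0.08, against -0.26 for all genes, and 22 of them were below 0. Median values over the 39 genes were 11.03, 11.41 and 11.23 log2 units in baseline E, 4 and 5 and 10.95, 11.03 and 11.04 in dinaciclib F, 4 and 5. Baseline E lay among the dinaciclib samples. The groups did not overlap in 15 of the 39 genes. In 12 of these the dinaciclib samples were lower and in 3 higher, near the 30.7% and 9.36% of all genes. The balance rested on the scaling. Quantile normalization called 8 lowered and 1 raised genes (13.4% and 8.89% of all genes), and centring on array medians called 3 lowered (PSMD5, PSME3 and PSMG1) and 14 raised (10.9% and 16.3% of all genes), while centring on spiked controls left PSMD5 alone as lowered (13.0% of all genes). Under the spiked controls PSME3, PSMG1 and PSMF1 had changes of -1.04, -1.02 and -1.02, further from 0 than as deposited, but with standard errors of 0.30 to 0.31 (adjusted p 0.0541 to 0.0638). A variance trend with robust estimation called 9 lowered and 1 raised (22.4% and 5.64% of all genes), and log2(intensity + 16) called 8 and 1 (22.4% and 5.39% of all genes).

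**Figure D1:**
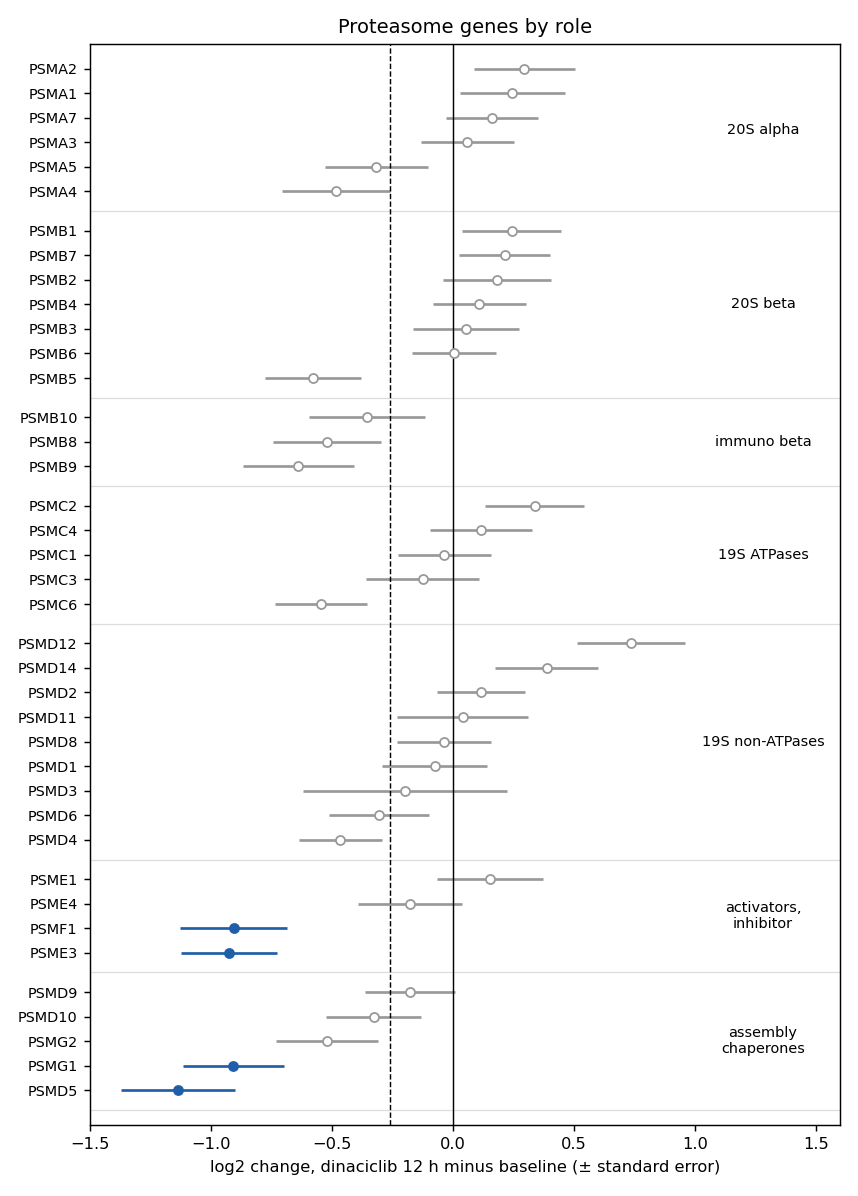
Log2 change of each of the 39 proteasome genes (dinaciclib at 12 h minus baseline, horizontal axis), grouped by role, with the standard error from limma as a bar. Filled blue points passed the test as lowered, open grey points did not pass, and the dashed line marks the median gene at -0.26. The 4 lowered genes, between -1.14 and -0.91, all lie in the bottom 2 groups.

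NFE2L1 and NFE2L2, paired with small MAF proteins, bind antioxidant response elements, and since genes of their pathway passed the test, as given further on, RefSeq promoters of the GRCh38.p14 assembly (250 bases before to 50 after the start) were searched for the core TGACNNNGC on both strands, with no other motif sought. Of the 39 genes, 34 had a window, and 13 of these held the core in at least 1. Counted by window, 13 of 41 held it (31.7%), against 13.3% of the 35116 windows in the table, a description that leaves base composition aside. The 250 bases before the start are shown for the lowered chaperones PSMD5 and PSMG1 and for the subunit gene PSMD12. They were chosen because the core, in capitals, is present in all 3 although PSMD12 had a change of the other sign. That change was on its brightest probe set and did not pass (0.74), and the dimmer probe set had one of -0.36. The core was not found in the windows of the lowered PSME3 and PSMF1.
PSMD5, chr9:120842923-120843172, minus strand: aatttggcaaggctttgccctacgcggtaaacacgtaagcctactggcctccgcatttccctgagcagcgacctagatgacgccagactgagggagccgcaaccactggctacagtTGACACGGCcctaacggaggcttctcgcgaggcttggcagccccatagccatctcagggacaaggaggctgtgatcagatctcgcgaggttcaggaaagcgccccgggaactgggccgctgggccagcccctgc
PSMG1, chr21:39183452-39183701, minus strand: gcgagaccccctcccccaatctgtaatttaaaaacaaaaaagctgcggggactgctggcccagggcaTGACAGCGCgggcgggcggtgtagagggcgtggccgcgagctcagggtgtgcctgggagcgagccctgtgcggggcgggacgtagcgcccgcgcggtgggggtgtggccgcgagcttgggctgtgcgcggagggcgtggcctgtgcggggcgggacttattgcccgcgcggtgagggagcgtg
PSMD12, chr17:67366578-67366827, minus strand: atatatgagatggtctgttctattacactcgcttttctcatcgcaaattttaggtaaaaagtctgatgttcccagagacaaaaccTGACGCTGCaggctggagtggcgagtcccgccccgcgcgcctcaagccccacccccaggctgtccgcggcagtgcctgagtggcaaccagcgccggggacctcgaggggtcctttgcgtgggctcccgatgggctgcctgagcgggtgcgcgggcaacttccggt
The core began 134 bases before the start in PSMD5, 183 in PSMG1 and 165 in PSMD12, and in each it lay on the gene's own strand. These are reference sequences, and binding was not measured.

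The assembly chaperones held the member with the largest fall. PSMD5, also called S5b, escorts ATPases during assembly of the 19S base and is released from the finished particle. It read 9.29, 9.93 and 9.85 log2 units in baseline E, 4 and 5 and 8.56, 8.67 and 8.43 in dinaciclib F, 4 and 5. All 3 dinaciclib samples lay below all baseline samples. The change was -1.14 with a standard error of 0.24, or 2.20-fold (limma, Benjamini-Hochberg adjusted p = 0.0215). Between same-numbered samples PSMD5 differed by -1.26 and -1.42, and between E and F by -0.74, though the labels do not say that these are pairs.

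PSMG1 encodes a chaperone (PAC1) that pairs with PSMG2 (PAC2) to build the alpha ring. PSMG1 read 10.76, 11.27 and 11.06 log2 units in baseline E, 4 and 5 and 10.10, 10.23 and 10.03 in dinaciclib F, 4 and 5. The groups did not overlap, and the change was -0.91 with a standard error of 0.21, or 1.88-fold (limma, Benjamini-Hochberg adjusted p = 0.0294). Its partner PSMG2 read 11.61 to 12.07 at baseline and 11.24 to 11.55 after dinaciclib. The groups did not overlap there either, but PSMG2 did not pass (-0.52, standard error 0.21, adjusted p = 0.150). The other base chaperones also did not pass, with changes of -0.33 for PSMD10 (gankyrin) and -0.18 for PSMD9. Of the 5 measured assembly chaperones, 2 fell, 3 did not pass, and their median was -0.52 as deposited (-0.26 relative to that of all genes), while 16.4% of all genes fell. After quantile normalization PSMG2 passed as lowered too (adjusted p under 0.05).

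Among the regulators, PSME3 encodes the activator REG gamma (PA28 gamma), a ring that caps 20S particles in the nucleus and does not need ubiquitin. PSME3 read 9.15, 9.56 and 9.36 log2 units in baseline E, 4 and 5 and 8.32, 8.57 and 8.39 in dinaciclib F, 4 and 5. Every dinaciclib sample was below every baseline sample, with a change of -0.93 and a standard error of 0.20, or 1.90-fold (limma, Benjamini-Hochberg adjusted p = 0.0235). PSMF1 encodes PI31, a protein first described as an inhibitor of the 20S core. Its values were 9.77, 10.24 and 10.23 in baseline E, 4 and 5 and 9.02, 9.37 and 9.13 in dinaciclib F, 4 and 5. These groups were apart as well, with a change of -0.91 and a standard error of 0.22, or 1.88-fold (limma, Benjamini-Hochberg adjusted p = 0.0352).

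The 2 other activators gave overlapping groups. PSME1, the alpha subunit of the interferon-induced PA28 cap, read 10.49 to 11.03 at baseline and 10.76 to 11.04 after dinaciclib, a change of 0.15 with a standard error of 0.22. PSME4 (PA200), a nuclear cap, had a change of -0.18 with a standard error of 0.21. Thus 2 of the 4 measured regulators fell, 0 rose and 2 did not pass, where 16.4% of all genes fell and 3.54% rose.

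**Figure D2:**
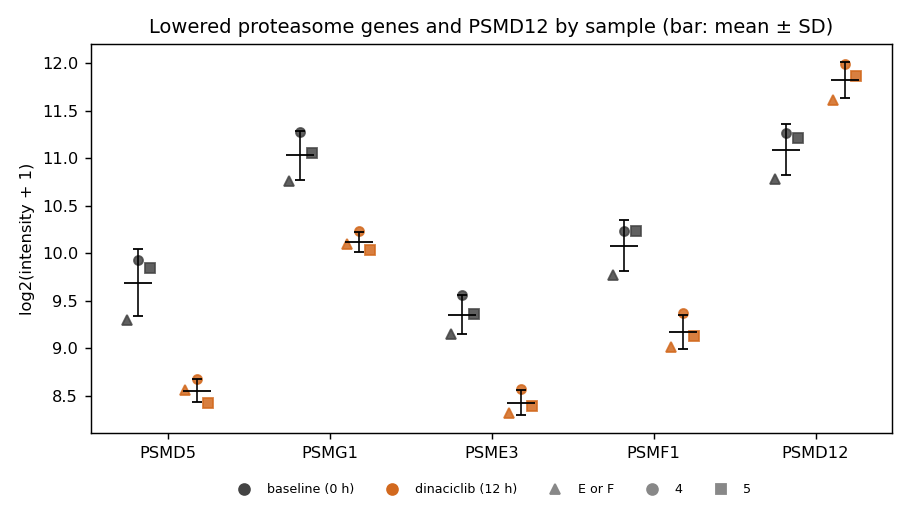
Values in log2(intensity + 1) in each of the 6 samples for the 4 lowered proteasome genes and for PSMD12, which had the highest change of the constitutive subunits. Grey symbols are baseline, orange symbols dinaciclib, triangles E or F, circles 4, squares 5, and bars the mean ± SD (n = 3). In all 5 genes the groups are apart, lower after dinaciclib in 4 and higher in PSMD12 (30.7% and 9.36% of all genes).

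The 4 calls were near the limit of what 6 arrays could show. Without baseline 4, baseline 5, dinaciclib F, dinaciclib 4 or dinaciclib 5 none of them passed (limma, Benjamini-Hochberg), while 7.51%, 7.73%, 12.6%, 10.6% and 9.76% of all genes fell. Without baseline E all 4 passed, and 15.4% of all genes fell. Over the 6 fits the adjusted p ranged from 0.0171 to 0.0829 for PSMD5, 0.0290 to 0.0884 for PSME3, 0.0271 to 0.104 for PSMG1 and 0.0288 to 0.127 for PSMF1. With 1 sample left out the changes ranged from -1.34 to -1.02 for PSMD5, -1.03 to -0.83 for PSME3, -1.05 to -0.79 for PSMG1 and -1.06 to -0.83 for PSMF1. Centring on array medians made them smaller, at -0.69 for PSMD5, -0.48 for PSME3, -0.46 for PSMG1 and -0.46 for PSMF1, which no longer passed (adjusted p = 0.0718). Within the 4 numbered samples PSMD5 alone passed (-1.34, adjusted p = 0.0415), against 9.86% of all genes. With letter or number as a batch term, the 4 genes passed, PSMB5 and PSMB9 passed as lowered (-0.58 and -0.64) and PSMD12 as raised (0.74), against 19.1% lowered and 5.01% raised among all genes.

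The 20S alpha ring showed no call in either direction. All 6 measured members (PSMA1 to PSMA5 and PSMA7) did not pass (limma, Benjamini-Hochberg). None had an unadjusted p under 0.05, which 4069 of all 11963 genes had. Their median change was 0.11, with 4 above and 2 below 0. PSMA2 had the highest, reading 11.79, 12.29 and 12.05 log2 units in baseline E, 4 and 5 and 12.22, 12.48 and 12.31 in dinaciclib F, 4 and 5. Those groups overlapped (0.29, standard error 0.21, adjusted p = 0.404). PSMA4 had the lowest, reading 11.58, 12.04 and 12.00 at baseline and 11.14, 11.54 and 11.48 after dinaciclib. It was the one alpha gene with groups apart, yet it did not pass (-0.48, standard error 0.22, adjusted p = 0.20). It passed as lowered after quantile normalization, whereas PSMA1, PSMA2, PSMA3 and PSMA7 passed as raised after centring on array medians.

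Of the 7 constitutive beta subunits, none passed (limma, Benjamini-Hochberg) and 6 had changes of at least 0.00. An unadjusted p under 0.05 was found for 1 of them, and for 4069 of all 11963 genes. PSMB1, a structural subunit, had the highest change (0.24, standard error 0.20), reading 12.32, 12.71 and 12.65 log2 units in baseline E, 4 and 5 and 12.62, 12.89 and 12.89 in dinaciclib F, 4 and 5. The 3 protease subunits differed among themselves. PSMB5, the chymotrypsin-like site and the target of bortezomib, read 11.03, 11.41 and 11.23 at baseline and 10.49, 10.78 and 10.65 after dinaciclib. Its groups did not overlap, but it did not pass (-0.58, standard error 0.20, adjusted p = 0.0966). PSMB6, the caspase-like site, read 11.32, 11.49 and 11.56 against 11.45, 11.41 and 11.52, a change of 0.00 with a standard error of 0.17. PSMB7, the trypsin-like site, read 11.86, 12.20 and 12.17 against 12.23, 12.38 and 12.26. That placed all dinaciclib samples just above the baseline samples (0.21, standard error 0.19, adjusted p = 0.514).

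None of the 3 measured immunoproteasome subunits passed (limma, Benjamini-Hochberg), with an unadjusted p under 0.05 for PSMB9 and for 4069 of all 11963 genes. As deposited all 3 had negative changes, but PSMB10 turned to 0.064 after quantile normalization and 0.096 after centring on array medians. PSMB8 (LMP7), the counterpart of PSMB5, read 8.92, 9.48 and 9.46 log2 units in baseline E, 4 and 5 and 8.66, 8.87 and 8.77 in dinaciclib F, 4 and 5 (-0.52, standard error 0.22, adjusted p = 0.170). PSMB9 (LMP2), the counterpart of PSMB6, read 8.58, 9.08 and 8.85 against 7.94, 8.43 and 8.22 (-0.64, standard error 0.23, adjusted p = 0.110). Both had all dinaciclib samples below baseline, as had 30.7% of all genes. PSMB10 (MECL1), the counterpart of PSMB7, overlapped, reading 7.99, 8.52 and 8.25 against 7.58, 8.05 and 8.06 (-0.36, standard error 0.24). The median of the 3 was -0.52, and relative to the median gene it was -0.26. After quantile normalization PSMB9 had a change of -0.27.

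Genes of antigen processing act on the peptides that the immunoproteasome cuts. TAP1, a subunit of the peptide transporter, fell from 8.77, 9.09 and 8.84 log2 units in baseline E, 4 and 5 to 8.20, 8.20 and 8.07 in dinaciclib F, 4 and 5 (-0.74, standard error 0.18; limma, Benjamini-Hochberg adjusted p = 0.0368). It was the 1 call among 7 measured genes of that list, with 0 rises, where 16.4% of all genes fell and 3.54% rose. The call of TAP1 ended under each of the 3 rescalings (adjusted p 0.0882 to 0.137). It also ended in the fits without a dinaciclib sample, baseline 4 or baseline 5 (0.0873 to 0.121). IRF1, a transcription factor of interferon responses, had a change of -0.42 and B2M, the light chain of class I molecules, one of 0.10, and neither passed. On the list 6 changes were negative and 1 positive, while 7781 of all 11963 genes had negative changes. ERAP2, named here after its values were seen, had the lowest change (-0.89, standard error 0.30) and did not pass. Its baseline mean was 5.25 log2 units.

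**Figure D3:**
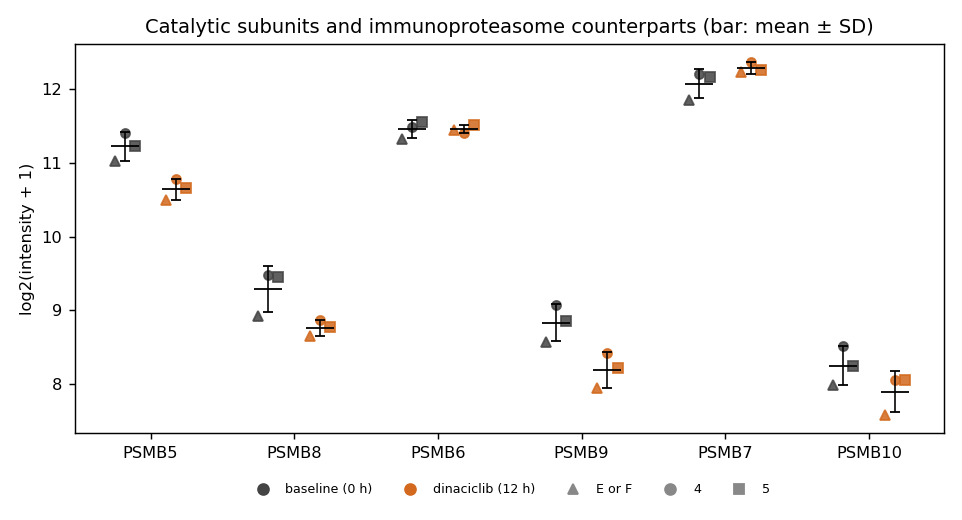
Values in log2(intensity + 1) in each sample for the protease subunits PSMB5, PSMB6 and PSMB7, each beside its immunoproteasome counterpart PSMB8, PSMB9 and PSMB10. Grey symbols are baseline, orange symbols dinaciclib, and bars the mean ± SD (n = 3). PSMB5, PSMB8 and PSMB9 have all dinaciclib samples below baseline and PSMB7 above (30.7% and 9.36% of all genes), and PSMB6 and PSMB10 overlap.

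In the 19S base, none of the 5 measured ATPases passed (limma, Benjamini-Hochberg) and the median change was -0.04. An unadjusted p under 0.05 was found for 1 ATPase gene, and for 4069 of all 11963 genes. PSMC2 had the highest change, with 11.59, 11.92 and 11.65 log2 units in baseline E, 4 and 5 and 11.84, 12.13 and 12.20 in dinaciclib F, 4 and 5. Its groups overlapped (0.34, standard error 0.20, adjusted p = 0.325). PSMC6 had the lowest, with 11.33, 11.70 and 11.66 against 11.05, 10.98 and 11.02, groups that did not overlap (-0.55, standard error 0.19, adjusted p = 0.101). The other ATPase genes, PSMC1, PSMC3 and PSMC4, had changes of -0.13 to 0.11. The ring's genes thus had changes on both sides of 0.

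Of the 9 measured non-ATPase subunits, none passed (limma, Benjamini-Hochberg) and the median change was -0.04. An unadjusted p under 0.05 was found for 2 of the 9, and for 4069 of all 11963 genes. PSMD12 (Rpn5), a scaffold of the lid, read 10.78, 11.27 and 11.22 log2 units in baseline E, 4 and 5 and 11.61, 11.99 and 11.87 in dinaciclib F, 4 and 5. Each dinaciclib sample was above each baseline sample. The change of 0.74, with a standard error of 0.22, or 1.67-fold, just missed the threshold (adjusted p = 0.0682). Its promoter is the last of those printed above. The change was 0.83 from E to F and 0.72 and 0.65 between same-numbered samples, which the labels do not call pairs. PSMD12 passed in 6 of 17 alternatives, among them quantile normalization (0.65, adjusted p = 0.0127) and the batch term (adjusted p = 0.0223).

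PSMD14 (Rpn11), the deubiquitinase of the lid, also had groups apart and did not pass (0.39, standard error 0.21, adjusted p = 0.281). PSMD4 (Rpn10), a ubiquitin receptor, went the other way. It read 10.96, 11.08 and 11.09 at baseline and 10.48, 10.64 and 10.61 after dinaciclib, with groups apart (-0.47, standard error 0.17, adjusted p = 0.117). PSMD1, PSMD2, PSMD3, PSMD6, PSMD8 and PSMD11 overlapped between groups, with changes of -0.31 to 0.11. PSMD3 had the widest error (0.42), since baseline E read 8.31 against 9.69 and 9.61 in baseline 4 and 5.

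More than 1 probe set was listed for 16 of the 39 genes, and in 7 of these the probe sets differed in the sign of the change. With every probe set tested as a row of its own, 5 of the 62 proteasome probe sets fell and 1 rose, against 14.0% and 3.90% of all probe sets with a gene. The rise was that of the dimmer probe set of PSMD11 (Rpn6), a lid subunit, named here after its values were seen. It read 8.08, 8.49 and 8.48 log2 units in baseline E, 4 and 5 and 9.35, 9.60 and 9.50 in dinaciclib F, 4 and 5 (1.13, standard error 0.21; limma, Benjamini-Hochberg adjusted p = 0.0159). The brighter probe set of PSMD11 overlapped between groups (0.04, standard error 0.27). Which part of the transcript each probe set reads was not analysed here.

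PSMD12 divided as well, since its dimmer probe set had a change of -0.36 (standard error 0.26) against 0.74 on the brighter one. PSMF1 fell on its brighter probe set and not on the other (0.03, standard error 0.44), whose baseline values ran from 6.61 to 8.00. All 4 probe sets of PSME3 had negative changes, and 2 of them passed (-0.93 and -1.06). The second probe set of PSMD5 was dim, at 0.73 to 3.37 log2 units, and did not pass (-0.64, standard error 0.91). PSMG1 had 1 probe set. The remaining genes with signs that differed were PSMA2 (0.29 and -0.10), PSMC2 (0.34 and -0.27), PSMD1 (-0.08 and 0.05), PSMD4 (-0.57, -0.47, -0.44 and 0.29) and PSME4 (-0.18, -0.79 and 0.21), and no probe set of these passed. With probe sets averaged per gene, PSMG1 alone of the 39 genes passed (14.6% of all genes fell), while PSMF1 had a change of -0.44 and PSMD12 one of 0.19.

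**Figure D4:**
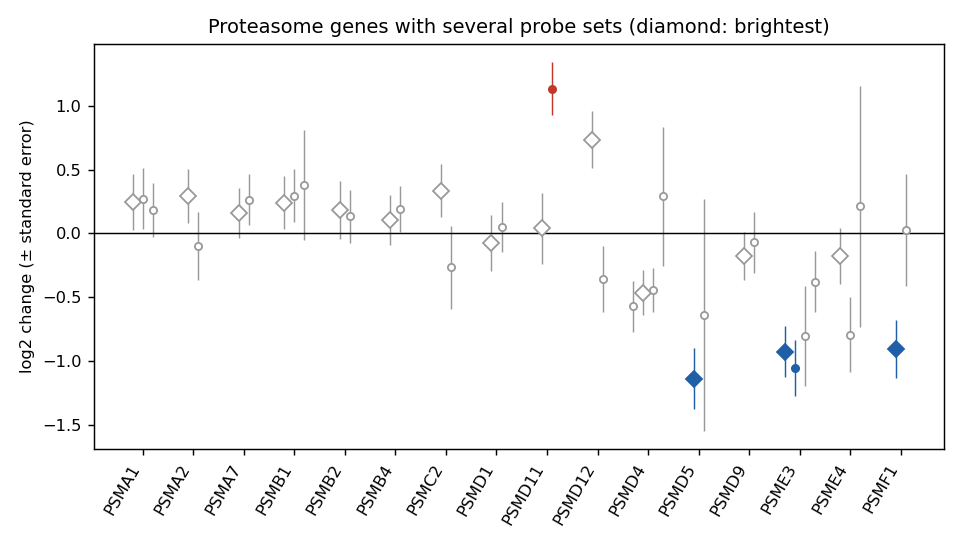
Log2 change (dinaciclib minus baseline, vertical axis) of each probe set of the 16 proteasome genes that have more than 1, with the standard error from limma as a bar and the brightest probe set of each gene as a diamond. Blue passed as lowered, red as raised and open grey did not pass. PSMD11 and PSMD12 show the widest gaps between well-measured probe sets of one gene.

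Partners that the symbol rule leaves out were described from lists of 67 genes, of which 48 were measured. Of the 48, 4 rose (8.33%) and 8 fell (16.7%), against 3.54% and 16.4% of all genes, and the median change was -0.07. PAAF1, a further chaperone of the 19S base, fell from 8.10, 8.27 and 8.12 log2 units in baseline E, 4 and 5 to 6.64, 6.59 and 6.29 in dinaciclib F, 4 and 5. The change was -1.65 with a standard error of 0.19, or 3.15-fold (limma, Benjamini-Hochberg adjusted p = 0.00470), and it passed whichever sample was left out (0.0139 to 0.0265). Of the base chaperones PSMD5, PSMD9, PSMD10 and PAAF1, PSMD5 and PAAF1 fell, where 16.4% of all genes fell. This grouping, which joins a partner to members, is not one of the lists and was not tested. POMP, which matures the 20S core, did not pass (0.19, standard error 0.20), and neither did the small lid subunit SEM1 (0.36, standard error 0.21) or the ubiquitin receptor ADRM1 (0.63, standard error 0.18, adjusted p = 0.0620). SEM1 and ADRM1 had all dinaciclib samples above baseline, as had 9.36% of all genes. So had AKIRIN2 of the same list, named here after its values were seen. It was dim, with a baseline mean of 4.03 log2 units, and did not pass (0.96, standard error 0.38).

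Enzymes and adaptors bound to the particle, and shuttle and segregase factors that feed it, were called only as lowered on their brightest probe sets. UBE3C, a ubiquitin ligase on the 19S cap, fell from 9.86, 10.44 and 10.44 log2 units in baseline E, 4 and 5 to 8.86, 9.18 and 9.27 in dinaciclib F, 4 and 5 (-1.14, standard error 0.24; limma, Benjamini-Hochberg adjusted p = 0.0238). It was the 1 call among 6 such enzymes and adaptors (16.4% of all genes fell and 3.54% rose). USP14, the deubiquitinase of the cap, did not pass (0.44, standard error 0.21). Among 8 shuttle and segregase factors 2 fell and 0 rose. The 2 were FAF1 and NPLOC4, cofactors of the unfoldase VCP. On the same list UFD1, NSFL1C and VCP itself did not pass, with changes of 0.08, 0.23 and -0.24. FAF1 read 9.18, 9.59 and 9.62 against 8.21, 8.67 and 8.60 (-0.97, standard error 0.23; limma, Benjamini-Hochberg adjusted p = 0.0322). NPLOC4 read 8.61, 8.62 and 8.59 against 7.90, 7.90 and 7.74 (-0.77, standard error 0.17, adjusted p = 0.0265). The groups of both were well apart as deposited.

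Of 13 ubiquitin conjugating enzymes, 1 rose, 1 fell and 11 did not pass, where 3.54% of all genes rose and 16.4% fell. UBE2G1 rose from 9.52, 9.92 and 9.92 log2 units in baseline E, 4 and 5 to 10.81, 11.21 and 11.05 in dinaciclib F, 4 and 5 (1.23, standard error 0.21; limma, Benjamini-Hochberg adjusted p = 0.0128). UBE2S, which works with the anaphase-promoting complex, fell from 11.51, 11.75 and 11.89 to 10.75, 10.82 and 10.85 (-0.91, standard error 0.19, adjusted p = 0.0215). None of the 3 measured ubiquitin and activating enzyme genes passed (limma, Benjamini-Hochberg). None had an unadjusted p under 0.05, against 4069 of all 11963 genes. Scaling and single samples bore on these falls. NPLOC4 did not pass under any of the 3 rescalings (adjusted p 0.0858 to 0.169), with a change of -0.36 after quantile normalization and -0.31 after centring on array medians. That centring also ended the calls of FAF1 (-0.52, adjusted p = 0.0831) and UBE2S (-0.46, adjusted p = 0.0684). FAF1, NPLOC4, UBE2S, UBE3C and TAP1 did not pass without baseline 4, baseline 5 or any 1 dinaciclib sample. Those fits called 5 to 7 partners, and 7.51% to 12.6% of all genes fell in them.

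Dimmer probe sets of some partners were called where the brightest was not, and they are named here after their values were seen. With every probe set tested, 8 of the 85 partner probe sets were raised, against 3.90% of all probe sets. They included 1 each of ECPAS, an adaptor of the 19S cap (1.49, standard error 0.23), and ZFAND5, which stimulates the particle (1.03, standard error 0.21). Also raised was 1 of the shuttle factor RAD23B (1.52, standard error 0.25), which was dim, with a baseline mean of 4.79 log2 units. Another of RAD23B did not pass (0.64). The brightest probe sets of these genes had changes of 0.17, 0.08 and 0.36. Of the 85, 10 were lowered, against 14.0% of all probe sets. These included 2 of UBE2B (-1.02 and -1.08, standard errors 0.22 and 0.24) and 1 of UBE2K (-1.25, standard error 0.22). Both are conjugating enzymes, and their brightest probe sets had changes of -0.03 and -0.77.

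The pathway that controls proteasome genes had 5 calls: of 6 measured genes, 3 rose, 2 fell and NFE2L1 itself did not pass, where 3.54% of all genes rose and 16.4% fell. NFE2L1 read 9.73, 10.19 and 9.95 log2 units in baseline E, 4 and 5 and 9.31, 9.56 and 9.30 in dinaciclib F, 4 and 5. Its groups were apart (-0.57, standard error 0.21, adjusted p = 0.115), and its 2 other probe sets had changes of -0.72 and -0.54. NGLY1, the enzyme that removes sugars from NFE2L1 and is needed for its activity, read 9.66, 9.78 and 9.61 against 7.97, 8.01 and 7.82, a fall of 3.36-fold (-1.75, standard error 0.17; limma, Benjamini-Hochberg adjusted p = 0.00370). Its dimmer probe set did not pass (0.16).

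NFE2L2, the related factor of the oxidative stress response, named here after its values were seen, rose from 10.65, 11.10 and 10.96 to 11.89, 12.17 and 12.13 log2 units (1.16, standard error 0.21; limma, Benjamini-Hochberg adjusted p = 0.0137). With 1 sample left out its adjusted p ranged from 0.0290 to 0.0535. KEAP1, which keeps NFE2L2 low, read 9.44, 9.83 and 9.77 against 8.92, 8.94 and 8.22 and passed only just (-0.99, standard error 0.27, adjusted p = 0.0499). It did not pass in any fit that left out 1 sample (0.0640 to 0.148). The small MAF proteins pair with both factors on DNA. MAFF rose from 10.94, 11.43 and 11.14 to 12.48, 12.67 and 12.54 (1.40, standard error 0.20, adjusted p = 0.00770) and MAFG from 8.58, 9.21 and 9.11 to 10.31, 10.72 and 10.61 (1.58, standard error 0.24, adjusted p = 0.00923), and both passed whichever sample was left out.

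**Figure D5:**
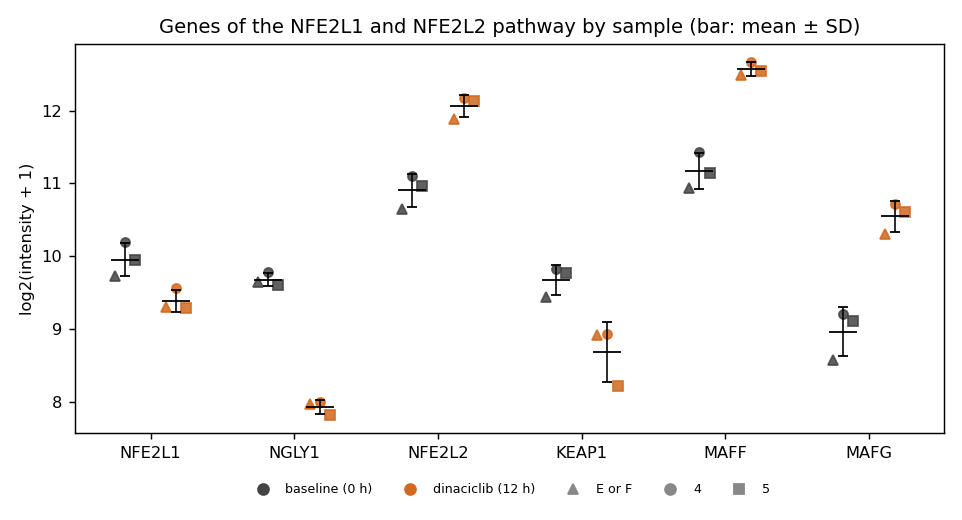
Values in log2(intensity + 1) in each sample for NFE2L1, NFE2L2 and the genes that act on or with them. Grey symbols are baseline, orange symbols dinaciclib, and bars the mean ± SD (n = 3). In all 6 genes the groups are apart, lower after dinaciclib for NFE2L1, NGLY1 and KEAP1 and higher for NFE2L2, MAFF and MAFG. Over all genes tested, 30.7% were apart and lower and 9.36% apart and higher.

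Of 48 proteasome genes in the role lists, 9 had no value of their own. PSMA6 and PSME2 were listed on probe sets shared with a second gene and were not used, and PSMA8, PSMB11, PSMC5, PSMD7, PSMD13, PSMG3 and PSMG4 were not analysed here. All 39 measured genes lay above the 40th percentile of brightness. With dimmer genes left out, 7 of the 39 fell and 1 rose, against 35.4% and 8.88% of the 7586 genes that remained.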

How the data were processed

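The deposited table holds 1 intensity per probe set and array, on a linear scale as its values show, for 22277 probe sets and 6 arrays. The authors' method of computing these intensities was not given in the sources used here. With 62 controls removed, probe sets with 1 gene in the platform annotation (19064) were matched by gene identifier to RefSeq symbols, and the brightest on average stood for its gene. The test used log2(value + 1), no added normalization and group as the only term, in limma 3.58.1 (R 4.3.3), over 15114 rows (11963 genes and 3151 probe sets without a single gene) with Benjamini-Hochberg adjustment. The fit was tested on simulated data. Folds are read on that log2 scale and understate changes of dim genes. Full values are given for members past the threshold, the catalytic subunits and their counterparts, the largest rise and fall of each role, and, of the partners, the 2 largest called rises and falls of each list and NFE2L1, with changes alone for POMP, SEM1, ADRM1 and USP14. Members, roles and lists were chosen with earlier results of these data known. Figures were drawn with matplotlib 3.10.9.

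Alternatives were 3 scalings, a replicate block, a letter or number batch term, numbered samples alone, no dim genes, a variance trend with robust estimation, mean or every probe set, log2(value + 16), and each sample left out.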

Additional observations from a re-analysis of the deposited data

How the results depend on the processing

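The number of proteasome genes called, 4 as deposited, became 9 after quantile normalization and with log2(value + 16), 17 after centring on array medians, 10 with a variance trend and robust estimation, 8 without dim genes, 7 with the batch term, 1 each with spiked controls, the numbered samples alone and the mean of probe sets, and 0 to 4 with 1 sample left out. Their median change moved beyond the spread between samples (SD 0.14) only under centring on array medians, to 0.38, and ran from -0.20 to 0.02 with 1 sample left out. Relative to the median gene it was 0.18 as deposited and -0.05 after quantile normalization. Called partners, 12 as deposited (4 raised and 8 lowered), became 20 under median centring. There 17 were raised and 3 lowered, against 16.3% and 10.9% of all genes. With 1 sample left out 5 to 12 partners were called, and 7.51% to 15.4% of all genes fell. The cause of these shifts was not tested. The numbers 4 and 5 occur in both groups, but the labels do not say that they pair samples. Deviations from the group mean correlated at 0.07 between same-numbered samples and 0.15 between E and F. Between the other baseline and dinaciclib samples they correlated at -0.10 to 0.03. Pairing was thus not settled, and no fit paired E with F along with the same-numbered samples. With the replicate block, which leaves the letters out of the contrast, 0 proteasome genes, 0 partners and 0 of all genes were called. PSMD5, PSME3, PSMF1 and PSMG1 kept their sign in all 17 alternatives. Signs turned for PSMB10 after quantile normalization (0.064) and median centring (0.096), and for PSMB6, whose change was near 0, after quantile normalization (-0.089), with spiked controls (-0.11), and with the replicate block or the numbered samples alone (-0.062). With 1 sample left out PSMB6 ran from -0.065 (without baseline E) to 0.052, and was -0.025 without dinaciclib 5.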
